A study of Homo sapiens with 9 samples.

Results

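The Fanconi anaemia core and ID complex genes described here are 10 genes, FANCA, FANCC, FANCD2, FANCE, FANCF, FANCG, FANCI, FANCL, FANCM and UBE2T, chosen by name from the 57773 genes of the deposited expression table. All 10 were found, and all 10 passed the filter on low values that left 15208 genes for testing. The libraries are poly(A)-selected RNA from OVCAR-8, an established human ovarian cancer cell line, taken 48 h after siRNA transfection. Cells received CDK12-2 siRNA or CDK12-6 siRNA, each of which targets the transcriptional kinase CDK12, and the controls received a luciferase siRNA, which has no target in these cells. Each of the 3 groups has 3 libraries, numbered AK39, AK41 and AK49, so that 6 CDK12 siRNA libraries stand against 3 luciferase libraries, and what these numbers stand for is not given in the labels. All libraries come from this 1 line, and a knockdown leaves part of the target's mRNA in place. The labels call the libraries of a group technical replicates, so every p-value measures the spread between libraries, not between separate cultures.

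The Fanconi anaemia pathway repairs interstrand crosslinks, lesions that join both strands of DNA and block replication forks. FANCM anchors a nuclear core complex to DNA. In that complex the ubiquitin ligase FANCL, with the ubiquitin-conjugating enzyme UBE2T, attaches a single ubiquitin to FANCD2 and FANCI, the partners of the ID complex. FANCA and FANCG form one module of the core complex, FANCC, FANCE and FANCF another, and FANCL works with FANCB and FAAP100. The deubiquitinase USP1 and its activator WDR48 remove the ubiquitin again. In ovarian cancer the pathway is known for its bearing on platinum drugs, which crosslink DNA, and CDK12 is known for its bearing on the transcription of DNA repair genes.

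Each library had 104963048 to 131472019 reads in the listed genes. The members rested on 931 reads (FANCF, in a CDK12 siRNA library) to 24465 reads (FANCI, in a luciferase library) each. CDK12 itself, the targeted gene, had 2.06, 2.57 and 2.70 RPKM in the CDK12-2 libraries AK39, AK41 and AK49 and 2.09, 2.37 and 2.75 RPKM in the CDK12-6 libraries, against 8.33, 7.09 and 8.40 RPKM in the luciferase libraries. RPKM divides the reads of a gene by its length in kilobases and by the library's total in units of 1000000 reads. The length is the one deposited for the gene, not that of the transcript in use, so comparisons of levels between genes are approximate. CDK12 fell by 1.39 ± 0.095 on the log2 scale (SE, limma, adjusted p = 1.5e-05). Of the carcinoma markers, KRT8 had 224 ± 20.3 RPKM in CDK12 siRNA libraries and 225 ± 13 RPKM in luciferase libraries, and PAX8 7.64 ± 1.72 RPKM in CDK12 siRNA and 7.73 ± 1.68 RPKM in luciferase libraries (SD, n = 6 and 3), whereas EPCAM was higher in all 6 CDK12 siRNA libraries, at 3.68 ± 0.249 RPKM against 2.59 ± 0.124 RPKM in luciferase libraries (log2 fold change 0.38, limma, adjusted p = 0.0029). KRT19 was at most 0.033 RPKM in any library and WT1 at most 1.01 RPKM. The 5 leukocyte markers summed to 4.04 to 5.71 RPKM in CDK12 siRNA libraries and 14.2 to 17.3 RPKM in luciferase libraries. Most of that sum was CD68, at 4.54 ± 0.67 RPKM in CDK12 siRNA libraries and 15.4 ± 1.39 RPKM in luciferase libraries (log2 fold change -1.57, limma, adjusted p = 2e-05). CD3E was at 0 in every library. Luciferase AK39 stood apart in LYZ, at 1.196 RPKM against 0.0291 to 0.093 RPKM in the other 8 libraries, and it also had the highest PTPRC, 0.071 RPKM. The 2 endothelial markers in the table summed to at most 0.136 RPKM and the 2 erythroid markers to at most 0.238 RPKM in any library. What part these marker levels have in the values below was not tested. In bulk RNA of 1 cell line, a change in every cell and a change in some of the cells cannot be told apart.

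With both CDK12 siRNAs against luciferase, 5 of the 10 members passed the test, and they moved both ways. In mean RPKM, FANCI fell by 32.9%, FANCE fell by 32.7% and FANCF fell by 35.1%. FANCC rose by 34.5% and FANCL by 19.2%. UBE2T, FANCD2, FANCG, FANCA and FANCM did not pass. The test was limma on log2(RPKM + 1) with all 9 libraries in 1 model, Benjamini-Hochberg adjustment over the 15208 tested genes, and a threshold of 0.05 on the adjusted p, and all log2 fold changes below are CDK12 siRNA over luciferase on that scale, which understates the change of low genes. Among all tested genes 33.0% passed, 13.3% higher and 19.7% lower, so the count of 5 stands against about 3 in 10 genes of the background. The median log2 fold change was -0.12 over the 10 members and -0.04 over all tested genes. In the same 5 members the 6 CDK12 siRNA libraries did not overlap the 3 luciferase libraries, which held for 34.2% of tested genes (all CDK12 siRNA libraries higher in 14.3%, lower in 19.9%). When the libraries were scaled to their reads in listed genes the count was the same, 2 higher and 3 lower, over 3389 higher and 3150 lower among all tested genes, against 2027 higher and 2997 lower as reported. With TMM factors, which scale libraries on a trimmed mean of gene ratios, 1 member was higher and 4 were lower.

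**Figure D1:**
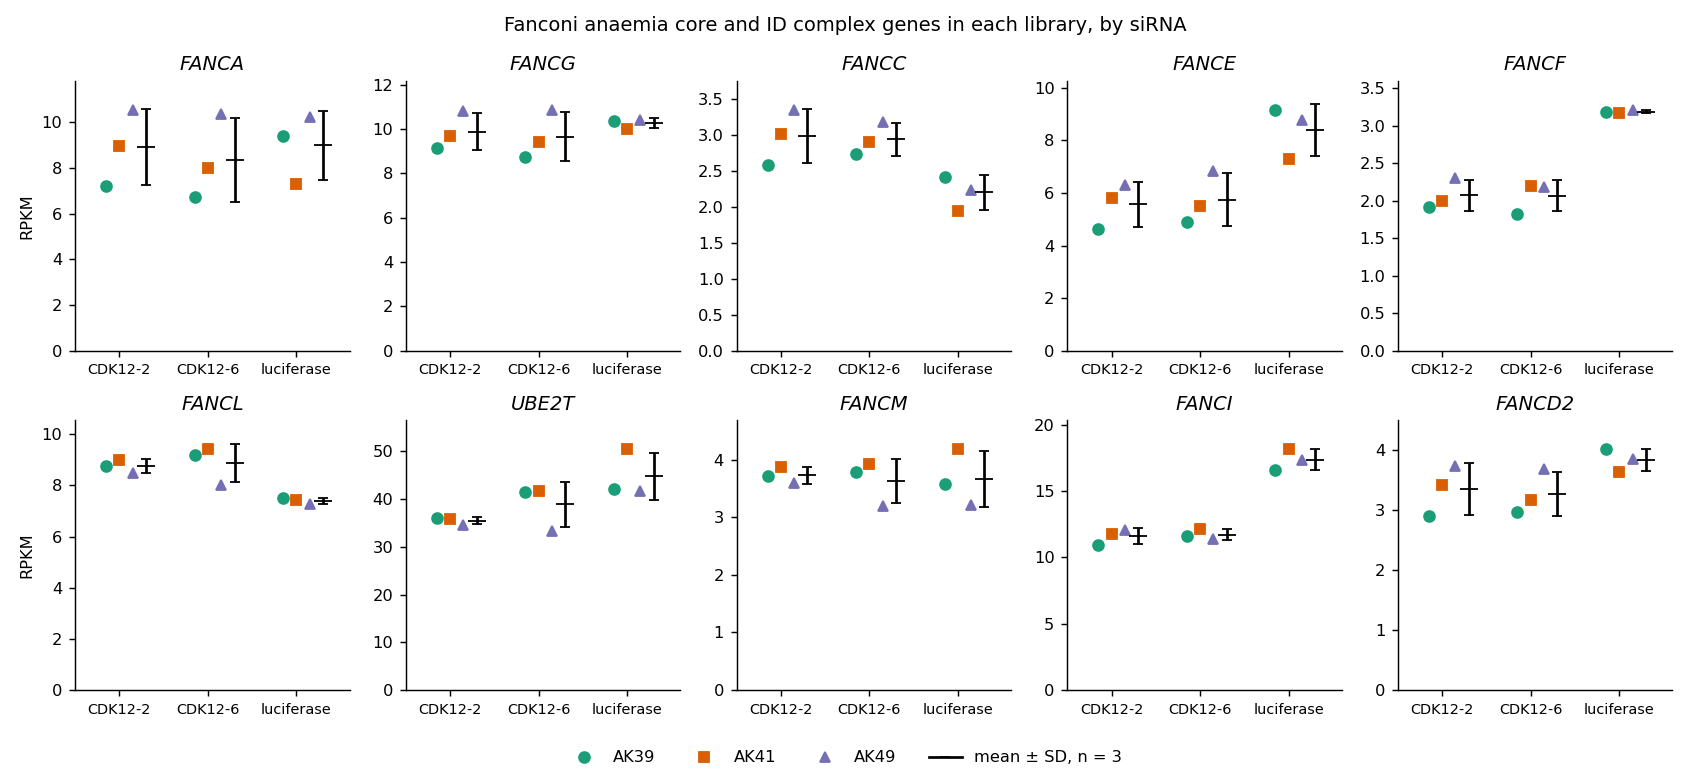
RPKM of each gene (y axis, from 0) in every library of CDK12-2, CDK12-6 and luciferase siRNA (x axis), with the AK number as colour and marker shape and the mean ± SD (n = 3) as a black bar. FANCI, FANCE and FANCF lie lower in all 6 CDK12 siRNA libraries than in any luciferase library, FANCC and FANCL lie higher, and the other 5 genes overlap.

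The count depended on single libraries. Among 22 alternatives, which changed the pseudocount, the filter, the scaling, the libraries or the model, it was 3 when any of the luciferase libraries AK39, AK41 and AK49 was left out, and 4 without CDK12-2 AK41, CDK12-6 AK39 or CDK12-6 AK41. Calls over all tested genes moved as well, from 5024 as reported to 3095 without luciferase AK39 and 4060 without CDK12-6 AK41. A covariate chosen after seeing the data gave 9 members, 2 higher and 7 lower, beside 9709 of all tested genes. It was the library's content of non-polyadenylated RNA, added to the model as a term. The reads of such RNAs were highest within their group in CDK12-2 AK39 (1665.4 per 1000000 reads), CDK12-6 AK39 (1672.9) and luciferase AK41 (1788.7), against 978.7 to 1431.6 in the other 6 libraries. Without luciferase AK39, the library with the highest LYZ, FANCI was at -0.57 (adjusted p = 0.0023), FANCF at -0.45 (adjusted p = 0.0094) and FANCC at 0.36 (adjusted p = 0.038), and the calls of FANCE and FANCL were lost. Leaving out CDK12-2 AK39, CDK12-6 AK39 and luciferase AK41 together gave 4 members, 1 higher and 3 lower, with FANCL lost (adjusted p = 0.097).

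The C-E-F module of the core complex contained 3 of the 5 members that passed, and its genes went in opposite directions. FANCE (chr6:35420138-35434880, hg19) encodes the subunit that binds FANCD2. It had 4.63, 5.80 and 6.29 RPKM with CDK12-2 and 4.88, 5.49 and 6.85 RPKM with CDK12-6, against 9.16, 7.29 and 8.78 RPKM with luciferase. The highest CDK12 siRNA library, CDK12-6 AK49, came close to the lowest luciferase library, AK41, but the groups did not overlap. Its log2 fold change was -0.50 ± 0.12 (SE, limma, adjusted p = 0.011). The call was lost without luciferase AK39 (-0.45, limma, adjusted p = 0.059). Without luciferase AK49 it lay at the threshold (-0.47, limma, adjusted p = 0.05 after rounding), and the count of members there still included FANCE.

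FANCF (chr11:22644079-22647387, hg19), a single-exon gene whose product works as an adaptor within the core complex, was the lowest member with CDK12 siRNA. It had 1.91, 2.00 and 2.30 RPKM with CDK12-2 and 1.83, 2.20 and 2.18 RPKM with CDK12-6, against 3.18, 3.18 and 3.21 RPKM with luciferase. The luciferase libraries lay close together, and every CDK12 siRNA library was well under them. The log2 fold change was -0.45 ± 0.072 (SE, limma, adjusted p = 0.0013), and the call held in all 22 alternatives.

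FANCC (chr9:97861336-98079991, hg19), which joins FANCE and FANCF in the module, rose. It had 2.59, 3.02 and 3.35 RPKM with CDK12-2 and 2.73, 2.90 and 3.18 RPKM with CDK12-6, against 2.42, 1.95 and 2.23 RPKM with luciferase. The lowest CDK12 siRNA library, CDK12-2 AK39, was only slightly above the highest luciferase library, AK39. The log2 fold change was 0.31 ± 0.085 (SE, limma, adjusted p = 0.021). It missed the threshold without luciferase AK41 (0.25, adjusted p = 0.082) or luciferase AK49 (0.32, adjusted p = 0.063).

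Within each library, FANCE was at 1.90 ± 0.134 times FANCC with CDK12 siRNA and 3.82 ± 0.0948 times FANCC with luciferase (SD, n = 6 and 3). Such ratios of 2 genes in the same library are free of the library's scaling, and they are given as a description with no test. FANCF was at 0.701 ± 0.0386 times FANCC with CDK12 siRNA and 1.46 ± 0.16 times FANCC with luciferase. In RPKM, FANCF was thus the lower of that pair in every CDK12 siRNA library and the higher in every luciferase library. Which of the pair is higher rests on the deposited lengths, 3309 bases for FANCF and 7089 bases for FANCC.

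FANCA and FANCG, the scaffold subunits of the other large module, did not pass. FANCA (chr16:89803957-89883065, hg19), the gene most often mutated in Fanconi anaemia, had 7.21, 8.97 and 10.6 RPKM with CDK12-2 and 6.75, 7.99 and 10.4 RPKM with CDK12-6, against 9.42, 7.31 and 10.3 RPKM with luciferase. The groups overlapped fully, and the spread among libraries was the widest of the 10 genes (SE 0.15). The log2 fold change was -0.06 with a 95% interval of -0.40 to 0.28 (limma, adjusted p = 0.81), and its sign turned under scaling to the reads in listed genes and under quantile normalization. FANCG (chr9:35073832-35080013, hg19) had 8.72 to 10.9 RPKM in CDK12 siRNA libraries (median 9.54) and 9.99 to 10.4 RPKM in luciferase libraries. Its log2 fold change was -0.07, with an interval of -0.25 to 0.12 (limma, adjusted p = 0.57), and its sign turned under quantile normalization.

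Of the catalytic pair of the core complex, FANCL rose and UBE2T did not pass. FANCL (chr2:58386378-58468507, hg19) had 8.78, 9.01 and 8.47 RPKM with CDK12-2 and 9.20, 9.41 and 8.01 RPKM with CDK12-6, against 7.50, 7.42 and 7.25 RPKM with luciferase. All 6 CDK12 siRNA libraries were higher, CDK12-6 AK49 by the least. The log2 fold change was 0.22 ± 0.07 (SE, limma, adjusted p = 0.035). This is the least stable of the 5 calls: it held in 11 of 22 alternatives and was lost without CDK12-2 AK41 (adjusted p = 0.082), CDK12-6 AK39 (0.074), CDK12-6 AK41 (0.08), luciferase AK39 (0.10), luciferase AK41 (0.08) or luciferase AK49 (0.12).

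UBE2T (chr1:202300785-202311108, hg19) was the most abundant member in every library. It had 36.1, 35.8 and 34.7 RPKM with CDK12-2 and 41.5, 41.8 and 33.4 RPKM with CDK12-6, against 42.2, 50.5 and 41.7 RPKM with luciferase. The groups touched at a single point, where CDK12-6 AK41 reached the lowest luciferase library, AK49. The log2 fold change of -0.26, with a 95% interval of -0.48 to -0.05, did not pass (limma, adjusted p = 0.063). The ratio of UBE2T to FANCL was 4.22 ± 0.212 with CDK12 siRNA and 6.06 ± 0.647 with luciferase (SD, n = 6 and 3), lower in all 6 CDK12 siRNA libraries.

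FANCM (chr14:45605143-45670093, hg19), the DNA translocase that anchors the complex, had 3.72, 3.87 and 3.59 RPKM with CDK12-2 and 3.78, 3.92 and 3.19 RPKM with CDK12-6, against 3.58, 4.18 and 3.22 RPKM with luciferase. The libraries of the 3 groups lay in the same range. Its log2 fold change was 0.01, with a 95% interval of -0.18 to 0.20 (limma, adjusted p = 0.95).

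Of the 2 partners of the ID complex, which bind each other as proteins, FANCI fell and FANCD2 did not pass; the difference between them was not tested. FANCI (chr15:89787180-89860492, hg19) had 11.0, 11.7 and 12.1 RPKM with CDK12-2 and 11.6, 12.2 and 11.4 RPKM with CDK12-6, against 16.6, 18.2 and 17.4 RPKM with luciferase. The gap between the groups was wider than the range within any of them. The log2 fold change was -0.54 ± 0.066 (SE, limma, adjusted p = 0.00031), and the call held in all 22 alternatives. FANCD2 (chr3:10068098-10143614, hg19) had 2.89, 3.42 and 3.73 RPKM with CDK12-2 and 2.97, 3.16 and 3.68 RPKM with CDK12-6, against 4.01, 3.64 and 3.84 RPKM with luciferase. The groups overlapped, through CDK12-2 AK49 and CDK12-6 AK49. Its log2 fold change was -0.17, with a 95% interval of -0.36 to 0.02 (limma, adjusted p = 0.16), and it passed under quantile normalization (-0.12, adjusted p = 0.045), with TMM factors (-0.13, adjusted p = 0.036) and with the poly(A) covariate (-0.24, adjusted p = 0.00055). FANCD2 has near-identical pseudogene copies that may take part of its reads, so its level is uncertain.

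Per kilobase, FANCI exceeded FANCD2 by 3.55 ± 0.343 times with CDK12 siRNA and 4.55 ± 0.424 times with luciferase (SD, n = 6 and 3), and the ratio was lower in all 6 CDK12 siRNA libraries. The deubiquitinase USP1 fell beside FANCI, at 38.1 ± 2.67 RPKM with CDK12 siRNA and 52.5 ± 3.47 RPKM with luciferase (log2 fold change -0.45 ± 0.083, limma, adjusted p = 0.0029). The ratio of FANCI to USP1 was 0.306 ± 0.0132 with CDK12 siRNA and 0.333 ± 0.0336 with luciferase, and the groups overlapped. WDR48, the activator of USP1, had 8.72 ± 0.586 RPKM with CDK12 siRNA and 7.14 ± 0.651 RPKM with luciferase and rose by 0.26 ± 0.082 on the log2 scale (limma, adjusted p = 0.037), a call that held in 10 of 22 alternatives and was lost without luciferase AK39 (adjusted p = 0.13) or luciferase AK49 (adjusted p = 0.16), among other libraries. The ratio of USP1 to WDR48 was 4.39 ± 0.43 with CDK12 siRNA and 7.40 ± 0.866 with luciferase.

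**Figure D2:**
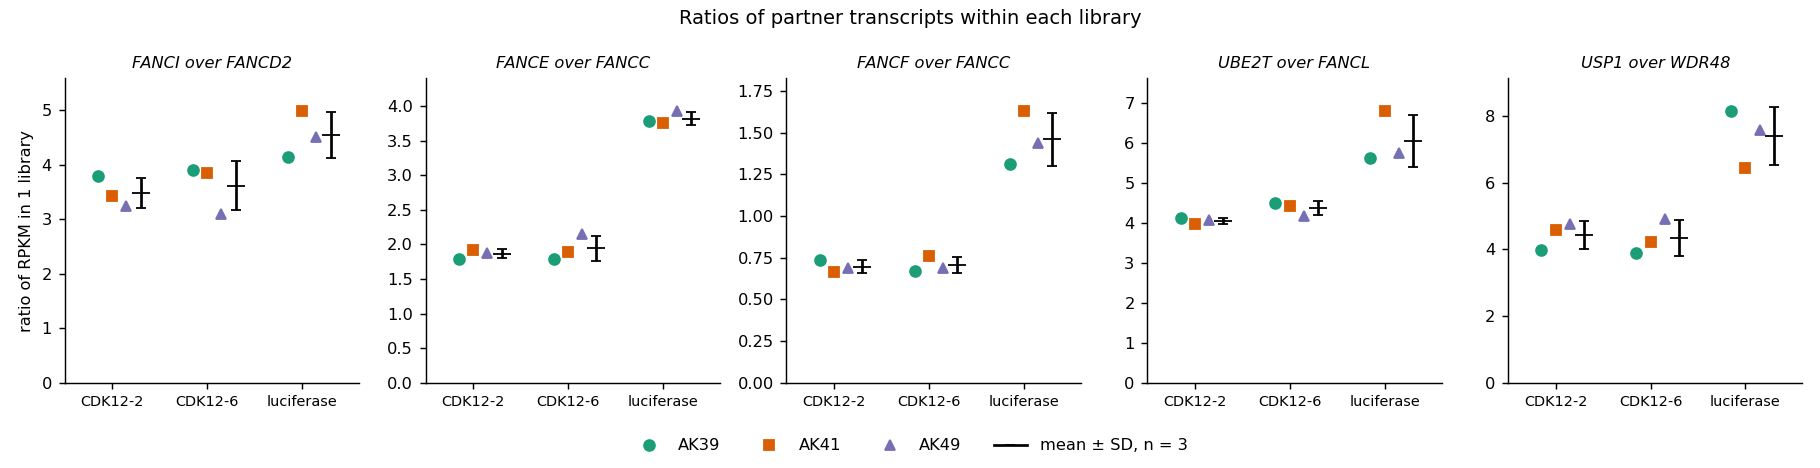
Ratio of the RPKM of 2 partner transcripts within the same library (y axis, from 0) for CDK12-2, CDK12-6 and luciferase siRNA (x axis), with the AK number as colour and marker shape and the mean ± SD (n = 3) as a black bar. In all 5 pairs every CDK12 siRNA library lies lower than every luciferase library. Most pairs set a gene with a negative change over one that rose, so this separation is no separate result. FANCI over USP1, which is not drawn, overlapped between the groups. FANCE over FANCC is at 1.90 ± 0.134 with CDK12 siRNA and 3.82 ± 0.0948 with luciferase.

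With the deposited lengths, the order of the levels differed between the groups most clearly at its low end. With CDK12 siRNA it ran from UBE2T, at 37.2 ± 3.58 RPKM, through FANCI, at 11.7 ± 0.447 RPKM, FANCG, FANCL, FANCA, FANCE, FANCM, FANCD2 and FANCC to FANCF, at 2.07 ± 0.185 RPKM (SD, n = 6). With luciferase it ran from UBE2T, at 44.8 ± 4.91 RPKM, through FANCI, at 17.4 ± 0.767 RPKM, FANCG, FANCA, FANCE, FANCL, FANCD2, FANCM and FANCF to FANCC, at 2.20 ± 0.239 RPKM (SD, n = 3). FANCC and FANCF exchanged the last places, and in each group the libraries of the one did not overlap those of the other. The neighbours from FANCG to FANCE overlapped with CDK12 siRNA, as did those from FANCM to FANCC. With luciferase the neighbours from FANCG to FANCL overlapped, and so did FANCD2 and FANCM. The 10 genes summed to 88 to 98.4 RPKM in the CDK12 siRNA libraries and 108 to 114 RPKM in the luciferase libraries, a sum that UBE2T and FANCI dominate.

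Each siRNA by itself gave 4 calls of 10. FANCC rose and FANCE, FANCF and FANCI fell with CDK12-2, where 25.2% of all tested genes passed (9.76% higher and 15.4% lower), and likewise with CDK12-6, where 26.0% passed (10.4% higher and 15.6% lower). The 2 comparisons share the luciferase libraries. FANCI had a log2 fold change of -0.55 ± 0.077 with CDK12-2 and -0.53 ± 0.077 with CDK12-6, and FANCF -0.45 ± 0.083 with each. For FANCE it was -0.52 ± 0.14 with CDK12-2 and -0.49 ± 0.14 with CDK12-6, and for FANCC 0.31 ± 0.098 with CDK12-2 and 0.30 ± 0.098 with CDK12-6. FANCL had 0.22 ± 0.081 with CDK12-2 (limma, adjusted p = 0.08) and 0.23 ± 0.081 with CDK12-6 (limma, adjusted p = 0.062), under the size needed at this spread. The count for CDK12-2 was 2 without CDK12-2 AK41, luciferase AK39 or luciferase AK49, and the count for CDK12-6 was 2 without CDK12-6 AK39, CDK12-6 AK41, luciferase AK39 or luciferase AK49. With no filter on low values each count was 2.

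In the direct comparison of CDK12-2 with CDK12-6 no member passed in limma (0 of 10, against 0% of all tested genes). An unadjusted p under 0.05 was found for 0 members and for only 101 of 15208 tested genes, and limma-voom on the recovered reads called 0 members as well. Deviations of CDK12-2 and CDK12-6 libraries of the same number correlated at 0.76 (AK39), 0.13 (AK41) and 0.81 (AK49), which this model does not use. The count of 0 therefore does not show that the siRNAs act alike. The largest difference was that of UBE2T, at -0.12 with a 95% interval of -0.37 to 0.13. For FANCI the interval was -0.19 to 0.16, for FANCF -0.18 to 0.19 and for FANCL -0.20 to 0.17. The intervals of FANCE (-0.35 to 0.28) and FANCA (-0.31 to 0.48) were the widest, so differences between the siRNAs of up to about those sizes could not be seen in these genes.

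**Figure D3:**
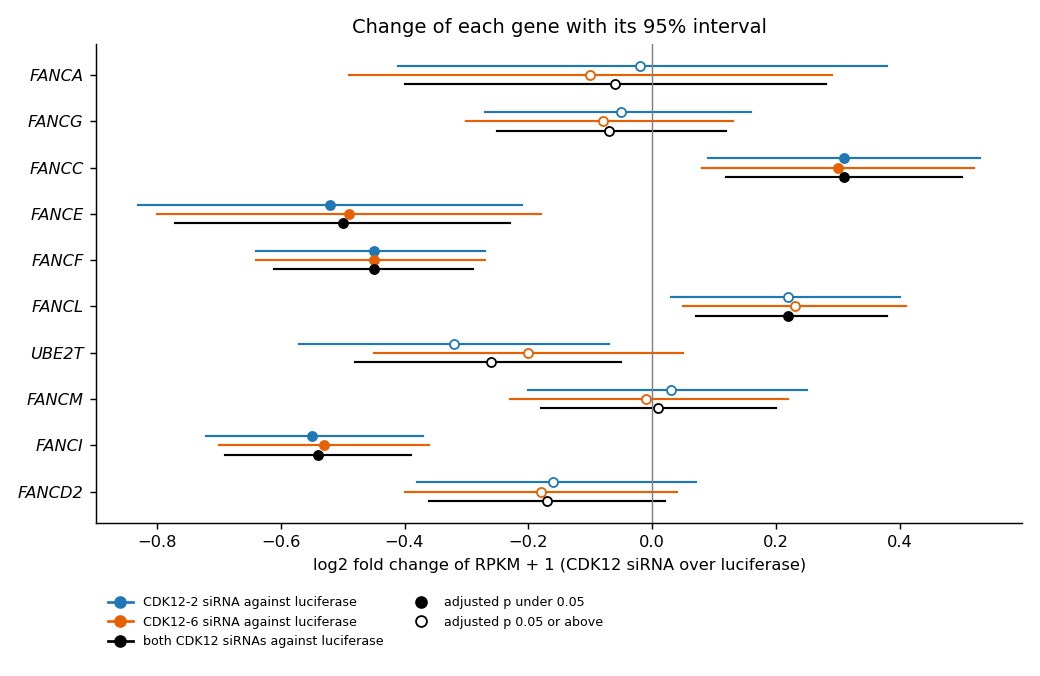
Log2 fold change of RPKM + 1 (x axis, CDK12 siRNA over luciferase) of each gene (y axis) with CDK12-2, CDK12-6 and both, each with its 95% interval, filled where the adjusted p is under 0.05. FANCI, FANCF and FANCE lie between -0.55 and -0.45, FANCC near 0.31 and FANCL near 0.22, and the siRNAs lie farthest apart for UBE2T, at -0.32 with CDK12-2 and -0.20 with CDK12-6.

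Libraries of the same siRNA differed in a pattern shared by several members. Within each CDK12 siRNA, FANCG (58.1% GC in the transcript), FANCE (57.9%), FANCA (55.4%), FANCC (50.6%) and FANCD2 (44.0%) were lowest in AK39 and highest in AK49. FANCM (37.7% GC), FANCL (39.3%) and UBE2T (43.7%) were lowest in AK49 within every group. FANCI (43.4%) and FANCF (45.4%) kept to neither order in both siRNAs, and FANCD2 and UBE2T differed in order at nearly equal GC content. The median GC content of tested genes was 48.7%. Over all tested genes the deviation of a library from its group mean had a Spearman's rho with GC content between -0.59 (CDK12-6 AK41) and 0.60 (CDK12-6 AK49). Within each CDK12 siRNA that rho was lowest in AK41, not in AK39. The share of a library's reads in listed genes did rise from AK39 through AK41 to AK49. It was 68.2%, 78.1% and 82.6% with CDK12-2 and 70.5%, 77.3% and 80.2% with CDK12-6. What part GC content or this share has in the pattern was not tested. Across the 10 genes the log2 fold change had a rho of -0.13 with GC content and of 0.61 with the length of the gene, which runs from 3309 bases (FANCF) to 218656 bases (FANCC). Over all tested genes these values were -0.05 and 0.02. The genes share their libraries and are not independent replicates.

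Promoters are shown for the 4 members that passed and have one in the table of RefSeq promoters used (GRCh38.p14), which matched 9 of the 10 members, all but FANCI. Each runs from 250 bases before the start of transcription to 50 after it, 5′ to 3′, and of the pair listed for FANCC the upstream one is shown. Capitals mark matches, on either strand, to 4 motifs: the E2F element GCGGGAA, the CCAAT box, the cell cycle element TTTGAA (CHR) and the ETS element CGGAAGT, none of which overlapped another.
FANCE promoter, chr6:35452088-35452387, plus strand: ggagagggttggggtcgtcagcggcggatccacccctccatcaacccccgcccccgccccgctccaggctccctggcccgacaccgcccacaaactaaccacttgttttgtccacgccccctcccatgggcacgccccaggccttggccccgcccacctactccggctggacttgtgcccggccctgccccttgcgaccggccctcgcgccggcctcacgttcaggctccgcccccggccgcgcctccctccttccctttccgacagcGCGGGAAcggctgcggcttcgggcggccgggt
FANCF promoter, chr11:22625774-22626073, minus strand: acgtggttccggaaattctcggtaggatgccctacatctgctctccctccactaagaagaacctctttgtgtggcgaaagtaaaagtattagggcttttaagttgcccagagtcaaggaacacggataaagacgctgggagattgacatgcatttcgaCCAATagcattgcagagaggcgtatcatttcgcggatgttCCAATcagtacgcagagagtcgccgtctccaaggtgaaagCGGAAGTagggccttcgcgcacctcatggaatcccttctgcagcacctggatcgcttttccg
FANCC promoter, chr9:95317660-95317959, minus strand: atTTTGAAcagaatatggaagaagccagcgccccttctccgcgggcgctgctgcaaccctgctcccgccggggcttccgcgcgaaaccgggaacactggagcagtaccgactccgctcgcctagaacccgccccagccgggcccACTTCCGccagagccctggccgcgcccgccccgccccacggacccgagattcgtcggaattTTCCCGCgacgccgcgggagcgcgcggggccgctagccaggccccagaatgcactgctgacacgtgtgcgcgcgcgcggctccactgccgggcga
FANCL promoter, chr2:58241276-58241575, minus strand: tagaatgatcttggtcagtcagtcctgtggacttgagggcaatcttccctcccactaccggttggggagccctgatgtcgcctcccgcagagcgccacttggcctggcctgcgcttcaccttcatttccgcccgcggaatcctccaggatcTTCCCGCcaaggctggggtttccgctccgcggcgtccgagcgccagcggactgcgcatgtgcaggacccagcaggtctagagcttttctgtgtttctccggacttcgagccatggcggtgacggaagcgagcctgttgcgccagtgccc
FANCE and FANCL each have the E2F element alone, although FANCE fell and FANCL rose. FANCF has 2 CCAAT boxes and an ETS element, and FANCC an E2F, an ETS and a CHR element. Of the 9 members with a promoter, FANCC, FANCD2, FANCE, FANCG and FANCL have the E2F element, which is in 6.6% of 35116 promoters. The CCAAT box was found in FANCA, FANCF, FANCM and UBE2T (34.6% of promoters), the CHR element in FANCC and UBE2T (15.2%) and the ETS element in FANCC, FANCD2 and FANCF (6.8%). These are matches of letters and say nothing of whether a factor binds.

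Another feature concerns the 3′ UTR. The heptamer GTGGGCA was picked out by its low fold changes in an earlier look at these same data, so it supports nothing here, and it is shown because 3 members have it, of which 1 fell. It is present once, in capitals, in a GENCODE 29 3′ UTR of FANCA, FANCD2 and FANCE (GRCh38). The FANCA match is from a transcript with a 3′ UTR of 706 bases, where the longest of the gene has 1052. It lies nearer the start of the gene than its end. The FANCD2 match is from a 3′ UTR of 710 bases, where the longest has 1686. Whether the transcripts present in these cells carry these sites was not tested.
FANCA site, chr16:89798537-89798565, minus strand: ttccctctagtGTGGGCAggggaccttga
FANCD2 site, chr3:10099518-10099546, plus strand: gggaggccgatGTGGGCAgatcacaaggt
FANCE site, chr6:35466949-35466977, plus strand: gccgacccagaGTGGGCAtgggatgctcc
FANCE fell, while FANCA and FANCD2 did not pass. FANCI and FANCF, which fell in all alternatives, had no match in their annotated 3′ UTRs, nor did the other 5 members. Of 10916 tested genes with an annotated 3′ UTR, 16.3% have the heptamer, and 27.4% of these fell, against 19.4% of those without it.

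The listed spans of several members, introns included, share bases with a neighbour. The library kit does not mark strand, so reads where exons of both overlap cannot be assigned. How much of each overlap is exonic was not tested. FANCI overlaps POLG, the mitochondrial DNA polymerase gene, by 959 bases, and POLG did not pass (log2 fold change -0.12, limma, adjusted p = 0.52). FANCL overlaps VRK2, a kinase gene, by 678 bases, and VRK2 fell (-0.28, limma, adjusted p = 0.015), at 3.52 RPKM with CDK12 siRNA and 4.50 RPKM with luciferase, whereas FANCL rose. FANCF contains the whole of AC103801.2, 510 bases long, which fell with it (-0.48, limma, adjusted p = 0.018). FANCA overlaps ZNF276 by 3355 bases (-0.14, limma, adjusted p = 0.46), and FANCD2 overlaps FANCD2OS by 20614 bases (-0.21, limma, adjusted p = 0.14). The span of FANCC holds only genes that did not pass the filter on low values, at most 0.367 RPKM in any library (RP11-80I15.1). FANCE, FANCG, FANCM and UBE2T overlap no listed gene.

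Of the 6 other core complex genes, 2 fell and none rose, a share passing equal to the 33.0% of all tested genes. APITD1 (CENPS) and STRA13 (CENPX) encode the histone-fold pair that binds FANCM. APITD1 had 3.86 ± 0.275 RPKM with CDK12 siRNA and 5.83 ± 0.474 RPKM with luciferase (-0.49 ± 0.079, limma, adjusted p = 0.0014). STRA13 had 12.4 ± 0.565 RPKM with CDK12 siRNA and 15.8 ± 1.28 RPKM with luciferase (-0.33 ± 0.071, limma, adjusted p = 0.0066). FANCB, the partner of FANCL, had 2.50 to 3.21 RPKM with CDK12 siRNA and 2.73 to 3.22 RPKM with luciferase and did not pass (-0.04), nor did FAAP20, FAAP24 and FAAP100, listed as C1orf86 (0.08), C19orf40 (-0.16) and C17orf70 (0.20). The differences between these genes were not tested.

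Among 15 genes that act downstream of the ID complex or beside it, 6 fell and 1 rose, where 19.7% of all tested genes fell and 13.3% rose. The nucleases and their scaffold were among those that fell: SLX4, the scaffold, had 1.51 ± 0.417 RPKM with CDK12 siRNA and 2.96 ± 0.713 RPKM with luciferase (-0.66, limma, adjusted p = 0.011), ERCC4, the incising nuclease, fell by 0.44 (adjusted p = 0.0012), and FAN1, a nuclease that binds ubiquitinated FANCD2, fell by 0.27 (adjusted p = 0.036). ERCC1, the partner of ERCC4, had a log2 fold change of -0.31 and did not pass (limma, adjusted p = 0.051). The recombination genes BRCA1 (-0.54, limma, adjusted p = 0.00023) and XRCC2 (-0.32, adjusted p = 0.025) fell as well. REV3L, the catalytic subunit of a translesion polymerase, rose, with 4.06 ± 0.287 RPKM with CDK12 siRNA and 2.79 ± 0.0973 RPKM with luciferase (0.41, limma, adjusted p = 0.0019). BRIP1 (FANCJ), PALB2 (FANCN) and REV1 were higher in all 6 CDK12 siRNA libraries, as were 14.3% of all tested genes. They did not pass (0.16, 0.19 and 0.11, limma, adjusted p = 0.085, 0.06 and 0.26).

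Of 4 genes of the BLM complex, which FANCM recruits, RMI2 rose (0.42, limma, adjusted p = 0.015). Of 6 genes upstream, UHRF2 rose (0.23, limma, adjusted p = 0.034) and UHRF1 fell (-0.44, limma, adjusted p = 0.029), both of them ubiquitin ligases described as sensors of crosslinks, and ATR, its partner ATRIP and CHEK1 did not pass. Of 6 E2F genes, the activator E2F3 (-0.42, limma, adjusted p = 0.026) and the repressor E2F8 (-0.37, adjusted p = 0.022) fell. In all, 4 of 39 other pathway genes rose and 12 fell, where 13.3% of all tested genes rose and 19.7% fell, with a median log2 fold change of -0.14, against -0.04 over all tested genes. Leaving out luciferase AK39 lowered the count of 16 to 7 and that of all tested genes from 5024 to 3095. Leaving out CDK12-6 AK41 lowered them to 10 and 4060, and leaving out luciferase AK49 lowered the 16 calls to 7. Of these calls, APITD1, ERCC4 and BRCA1 held in all 22 alternatives, USP1 and REV3L in 21, STRA13 in 20, SLX4 in 19, RMI2 in 18, E2F3 in 17, E2F8 in 16, XRCC2 and UHRF1 in 15, FAN1 and UHRF2 in 12 and WDR48 in 10.

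**Figure D4:**
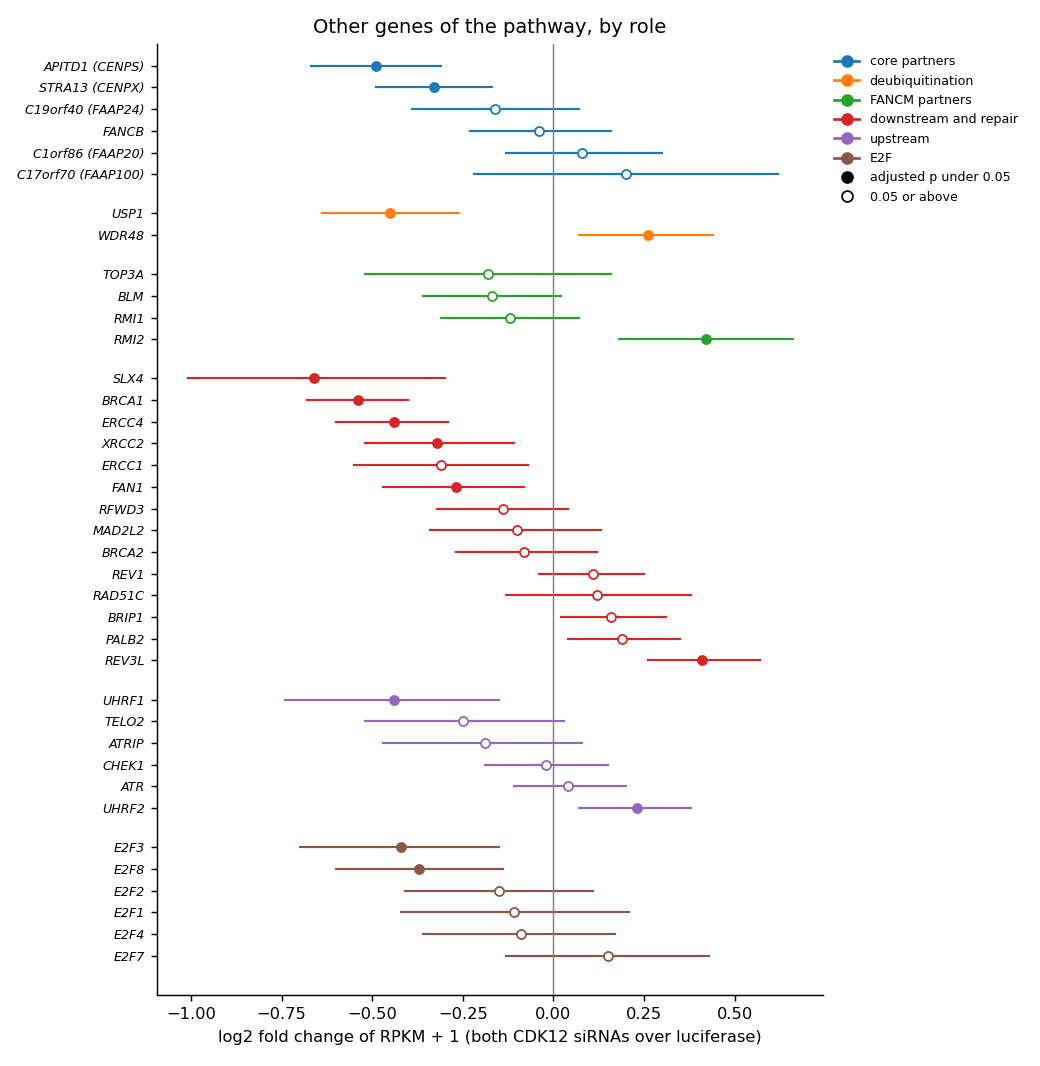
Log2 fold change of RPKM + 1 (x axis, both CDK12 siRNAs over luciferase) of other genes of the pathway (y axis), grouped and coloured by role, with 95% intervals and filled points where the adjusted p is under 0.05. SLX4 and BRCA1 have the lowest values, at -0.66 and -0.54, and RMI2 and REV3L the highest, at 0.42 and 0.41.

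The authors' deposited table, whose comparison was read as both CDK12 siRNAs against luciferase, has a false discovery rate under 0.05 for 4 of the 10 members, against 35.0% of the tested genes. In the authors' deposited table FANCI has a log2 fold change of -0.59 (rate 4e-05), FANCF -0.64 (rate 1.1e-05), FANCE -0.58 (rate 2.7e-05) and FANCC 0.42 (rate 0.0031). FANCL, at 0.25 in the authors' deposited table, has a rate of 0.15, above the threshold, so the rise of FANCL rests on the limma test alone.

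**Figure D5:**
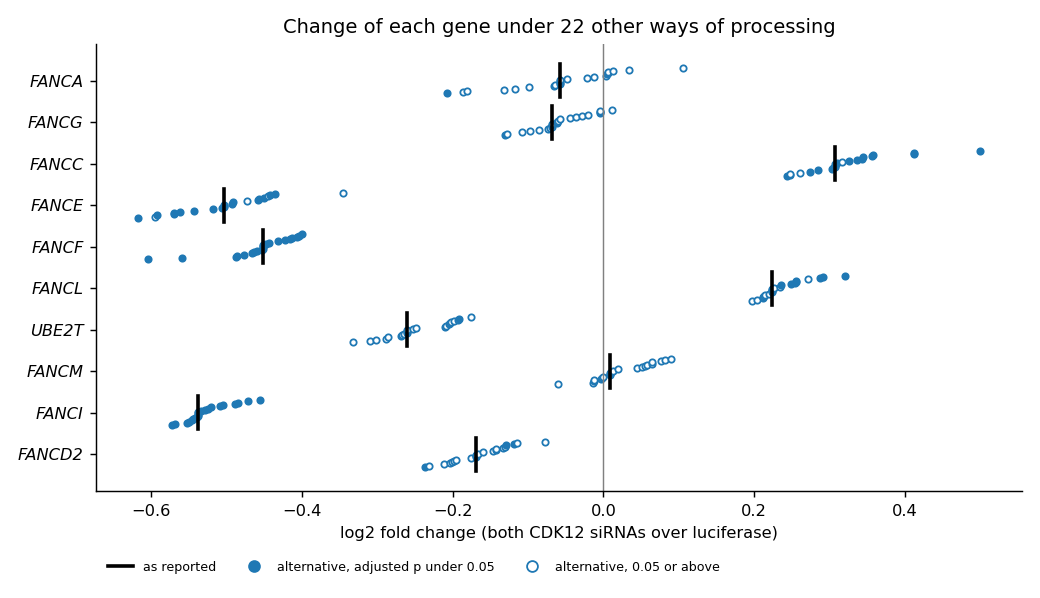
Log2 fold change of each gene (x axis, both CDK12 siRNAs over luciferase) as reported (black bar) and under 22 other ways of processing (points, filled where the adjusted p is under 0.05). FANCI and FANCF are filled throughout, FANCE and FANCC in 18 of 22 and FANCL in 11 of 22, and FANCA and FANCM lie on both sides of 0. FANCE without luciferase AK49, at an adjusted p of 0.05 after rounding, is drawn unfilled.

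The tested genes most like FANCI over the 9 libraries, by Pearson's r on log2(RPKM + 1), were ZNF239 (0.996), FERMT2 (0.995), RABEP1 (0.994), TMPO (0.994) and REEP5 (0.994), and all 5 fell with both CDK12 siRNAs. Those most like FANCC were NARF (0.995), LITAF (0.995), NUAK1 (0.994), the mitochondrial tRNA gene MT-TM (0.993) and RP11-512M8.5 (0.992), and all 5 rose. These correlations are over libraries that share the difference between the groups, so they describe likeness and carry no test.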

How the data were processed

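RNA was sequenced from 9 OVCAR-8 libraries in 3 groups taken from the labels. The values are RPKM as deposited by the authors for 57773 genes in hg19; TopHat2, featureCounts and edgeR are named in the submitters' processing notes, with no settings, and the sources used here do not name the annotation version. Per the file headers, the authors also deposited, for 1 comparison, their log2 fold change with an adjusted p-value (false discovery rate). As these are not counts, log2(RPKM + 1) was tested with limma (version 3.58.1, eBayes with trend, under R version 4.3.3) in 1 fit of all groups, for genes that reached 1 RPKM in 3 or more libraries. Intervals are 95% per gene and not adjusted. Whole reads could be recovered from 100% of the values (tolerance 0.001). They gave library sizes of 130.7 to 173.4, in units of 1000000 reads, and an added limma-voom fit. The test script was tested on simulated data.

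Named were all members, CDK12, genes of 6 pathway lists that passed (FANCB, USP1 and WDR48 always), overlapping genes and the 5 genes most like FANCI and like FANCC. The members and lists were chosen with earlier results of these data known. Genes of the lists that did not pass and CD68 were named after their values were seen. A gene that counts in these lists is not reported here by name. Overlaps between genes use the listed hg19 spans; GC content and 3′ UTRs are from GENCODE 29 (GRCh38), promoters from RefSeq (GRCh38.p14). AK numbers were not used to pair libraries. Alternatives changed the pseudocount, filter, scaling, libraries, a replicate block and a covariate.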

Additional observations from a re-analysis of the deposited data

How the results depend on the processing

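FANCI, FANCF, and the targeted gene CDK12 kept their call in all 22 alternatives, FANCE and FANCC in 18 and FANCL in 11, and none of these 6 changed sign. The planned edgeR and DESeq2 fits were not run, because the deposited unit is RPKM. Leaving out 1 library, or the 3 libraries of an AK number, the members called ranged from 2 to 5 with both siRNAs, 0 to 5 with CDK12-2 and 0 to 4 with CDK12-6, and 0 throughout between the siRNAs. All genes called ranged from 1805 to 5314 and the other pathway genes from 4 to 18. Among these, leaving out AK41 in all groups gave the lowest counts (2, 0, 0, 1805 and 4), with 2 libraries left per group. FANCE missed the threshold also without AK39 in all groups (-0.35, adjusted p = 0.09) and without AK41 (adjusted p = 0.066), and FANCC without AK41 (0.25) and AK49 (0.11). With no filter on low values 2 members passed with CDK12-2 and 2 with CDK12-6. With both siRNAs 5 members and 6128 of all genes then passed, and the reason for these shifts was not tested. With non-polyadenylated RNA as a covariate, chosen after seeing the data, 9 members passed with both siRNAs, 8 with CDK12-2 and 8 with CDK12-6, beside 9709 of all genes and 29 other pathway genes; the cause was not tested. FANCA, at -0.06, turned to 0.004 when scaled to the reads in listed genes, 0.013 under quantile normalization, 0.005 with limma-voom (also chosen after seeing the data), 0.006 without CDK12-2 AK39 or CDK12-6 AK39, 0.034 without luciferase AK49 and 0.106 without AK39. Leaving out 1 library at a time or an AK number, it ranged from -0.186 to 0.106. FANCG, at -0.07, turned to 0.011 under quantile normalization. FANCM, at 0.01, ranged from -0.06 to 0.089 and turned to between -0.06 and -0.001 in 7 alternatives that left out libraries. The AK numbers were tried as a replicate block although they were not shown to pair the libraries: deviations of same-numbered libraries correlated at -0.56 to 0.81, and 5 of 9 libraries correlated best with one of their own number. With the replicate block 6 members passed with both siRNAs, 6 with CDK12-2, 5 with CDK12-6 and 0 between them, and the added call with both was UBE2T (-0.26, adjusted p = 0.027).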
